A study of Arabidopsis thaliana with 16 samples.

Results

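AT2G14900 and AT5G59845 are Arabidopsis thaliana genes of the GASA family, the gibberellin-regulated protein family. They were taken by locus from the probe table. Each was paired with 1 probe set and neither with a probe set shared by several genes, so the members were 2 of the 22746 non-control probe sets on the array: 266613_at for AT2G14900 and 247657_at for AT5G59845. Both were bright enough to be tested, among 17059 probe sets in all. The rule goes by locus and reads no measured value, but the genes were chosen with earlier results of these data known.

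The GASA genes code for small secreted or membrane-associated peptides with a conserved, cysteine-rich C-terminal region, and they are related to GAST1 of tomato, a transcript that rises with gibberellin. In Arabidopsis, family members are known for parts in seed germination, stem growth, flowering and stress responses, and several respond to gibberellin, some rising and others falling. Gibberellin is bound by GID1 receptors, and the bound receptor leads the DELLA proteins, nuclear repressors of gibberellin responses, to be tagged by the F-box protein SLY1 and degraded.

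The design addresses early transcript responses to DELLA induction. The samples were shoots of 8-day-old seedlings of the Ler ecotype, from 2 transgenic lines. In the rga line, dexamethasone (DEX) induces rga-delta17, a dominant DELLA protein insensitive to gibberellin; the vector line holds the same inducible vector with an empty cassette. All 6 groups, the mock groups included, received the gibberellin GA4 (2 µM) as a spray 16 h beforehand and once more at the start. The rga line had 3 arrays in each of 4 groups, namely GA4 alone (mock) for 2 h, GA4 with 10 µM DEX for 2 h, mock for 4 h and DEX for 4 h. The vector line had 2 arrays in each of 2 groups, mock for 4 h and DEX for 4 h. Each kind of plant is described as a single line, so a difference between the lines cannot be told apart from the place of the insertion or the history of the line. The replicates are called biological in the study's design, and p-values measure the spread between them.

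Values are signals on the linear scale, 1 per probe set, as deposited. Changes are on the log2 scale with the SE of 1 limma fit over all 16 arrays, and a change was called at an adjusted p below 0.05 (Benjamini-Hochberg over the 17059 probe sets tested). Array medians were 138 to 141 on the vector DEX arrays and 167 to 193 on the other 14. The vector DEX arrays correlated with the other 14 at 0.789 to 0.884, and those 14 correlated with each other at 0.916 to 0.975. The 25S ribosomal RNA control gave 12528 and 13088 on the vector DEX arrays and 391 to 2046 elsewhere, whereas the ratio of the 3′ to the 5′ GAPDH control (0.795 to 0.876 against 0.686 to 0.883) lay in the same range. None of the 16 listed shoot markers had a paired probe set. Of photosynthesis genes picked after their values had been seen, rbcL, coding for the large subunit of Rubisco, gave 2334 to 3785 over the arrays, and the light-harvesting protein genes LHCB4.1, LHCB4.2 and LHCB4.3 gave 11411 to 16686, 484 to 3187 and 402 to 1429. Of 15 listed root markers 3 had a probe set; none was at the floor, and their summed signal was 6296 to 8347 in the rga line, 6945 to 7226 in vector mock and 5580 to 7098 in vector DEX, nearly all of it from PYK10, a beta-glucosidase gene. In such whole-shoot RNA, fewer cells that express a gene and less RNA per cell cannot be told apart.

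AT2G14900 was brightest in the vector line without DEX, and its other groups overlapped one with the next. Its signals on the vector mock arrays were 1183 and 1266. The rga mock arrays gave 536, 752 and 731 at 2 h, and 562, 772 and 737 at 4 h. Both vector mock arrays lay above all 6 rga mock arrays, and above every other array of the series. For 18.3% of the tested probe sets, both vector mock arrays lay above the 3 rga mock arrays at 4 h. That is a looser rule, and the share with both above every other array is not given here. By percentile within the array, the vector mock arrays stood at 87.1 and 88.0, and rga DEX replicate 3 at 2 h at 86.2. With DEX, the rga arrays gave 1007, 733 and 1062 at 2 h. At 4 h they gave 727, 599 and 689. The vector DEX arrays gave 691 and 961. In order of the group means, vector mock (1225 ± 58.8, mean ± SD, n = 2) was followed by rga DEX at 2 h (934 ± 176, n = 3), vector DEX (826 ± 191, n = 2), rga mock at 4 h (690 ± 113), rga mock at 2 h (673 ± 119) and rga DEX at 4 h (672 ± 66.1, n = 3 each). Only the first step of this order separated the arrays; each later neighbour overlapped the one before it.

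AT5G59845 was dim, at percentiles from 25.7 to 44.9 within its arrays. Its signal was lowest in the vector line with DEX, where the arrays gave 44.2 and 27.6. The vector mock arrays gave 67.4 and 78.8. The 2 h arrays of the rga line gave 83.8, 100.3 and 91.2 in mock, and 109, 76.4 and 83.5 with DEX. In signal, all 6 of these lay above both vector DEX arrays, as did every other array. By percentile within the array this did not hold. Vector DEX replicate 1 stood at 32.7, above rga DEX replicate 2 at 2 h and rga DEX replicate 3 at 4 h, both at 30.6. At 4 h, the rga arrays gave 150, 95.6 and 75.1 in mock and 95.6, 76.3 and 60.2 with DEX. The order of the means was rga mock at 4 h (107 ± 38.5), rga mock at 2 h (91.8 ± 8.28), rga DEX at 2 h (89.5 ± 16.9), rga DEX at 4 h (77.4 ± 17.7, n = 3 each), vector mock (73.1 ± 8.08, n = 2) and vector DEX (35.9 ± 11.7, n = 2). Neighbouring groups overlapped at every step except the last. That last separation, both vector DEX arrays below both vector mock arrays, was seen for 46.3% of the tested probe sets. The share with both vector DEX arrays below every other array is not given here.

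**Figure D1:**
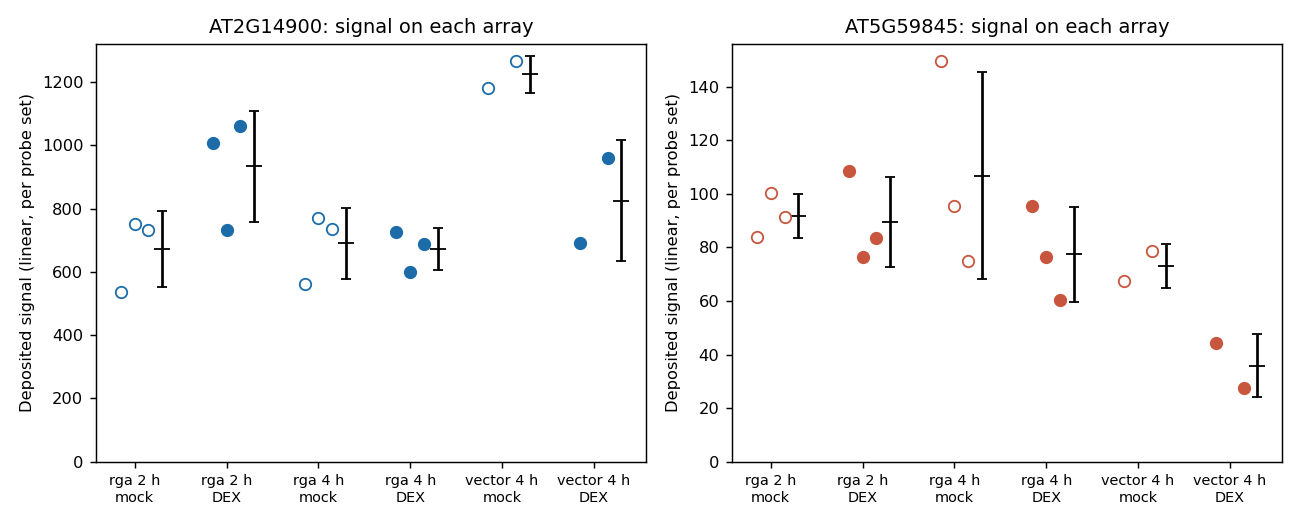
Deposited signal of AT2G14900 (left) and AT5G59845 (right) on each of the 16 arrays, by group; open points are mock and filled points DEX arrays, and black bars give the group mean ± SD (n = 3 in the rga line, n = 2 in the vector line). The 2 vector mock arrays of AT2G14900, at 1183 and 1266, are above all others. The 2 vector DEX arrays of AT5G59845, at 44.2 and 27.6, are below all others. How many of all probe sets show such separations from every other array is not given here.

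The first comparison concerns the induced DELLA protein after 2 h. Neither gene was called. AT2G14900 changed by 0.47 ± 0.17 (SE; adjusted p = 0.164), a ratio of 1.39 with a 95% interval from 1.08 to 1.77. Its unadjusted limma p was 0.0125, and 92.8% of the tested probe sets had a lower change. Among its DEX arrays, 1007 and 1062 lay above all 3 mock arrays, while 733 fell between the 2 higher mock arrays. Without that DEX array (replicate 2) the change was 0.64 (adjusted p = 0.0571), and without mock replicate 1, the lowest array, it was 0.31 (adjusted p = 0.517). AT5G59845 changed by -0.049 ± 0.31 (adjusted p = 0.978), with an interval from -0.71 to 0.61, and its groups overlapped. In this comparison 4.14% of all tested probe sets were called.

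At 4 h, DEX likewise gave no call for either gene in the rga line. For AT2G14900 the log2 change was -0.031 ± 0.17 (adjusted p = 0.963), and its interval, from -0.39 to 0.33, holds ratios from 0.765 to 1.25. The mock and DEX arrays of this gene were interleaved. AT5G59845 was lower on average, at -0.43 ± 0.31 (adjusted p = 0.570) with an interval from -1.09 to 0.23, or ratios from 0.471 to 1.17. That value rested on a single bright mock array: without mock replicate 1, at 150, it was -0.16 (adjusted p = 0.916). The call rate over all probe sets was 5.16%.

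In the vector line, which lacks the transgene, both genes fell with DEX. AT2G14900 fell by 0.59 on the log2 scale (SE 0.21, adjusted p = 0.0264), with both DEX arrays below both mock arrays. Its level with DEX was 0.666 of the mock level, with a 95% interval from 0.492 to 0.9005. AT5G59845 fell by 1.06 (SE 0.38, adjusted p = 0.0293), to 0.479 of its mock level (0.274 to 0.837), again without overlap. In this comparison 47.3% of all tested probe sets were called and 29.6% were called lower, and in 46.3% both DEX arrays lay below both mock arrays, so calls and separation of this kind were common on the vector DEX arrays. The median change over all tested probe sets was -0.15 (0.12 after centring on array medians), higher calls made up 37.4% of the calls (58.1% after that centring), and 28.7% and 15.6% of the probe sets had a lower change than AT2G14900 and AT5G59845. After centring on array medians neither was called (-0.32 and -0.79, adjusted p = 0.231 and 0.0926), and after quantile normalization AT5G59845 was not (-0.64, adjusted p = 0.180). Each call was also lost on leaving out any of 3 of the 4 arrays; AT2G14900 stood at -0.35 (adjusted p = 0.269) without DEX replicate 1 and AT5G59845 at -0.72 (adjusted p = 0.232) without DEX replicate 2. The higher ribosomal RNA control and lower array medians given above move with this comparison, and the ratio of the 3′ to the 5′ actin control was 12.8 to 14.2 on the DEX and 14.9 to 16.6 on the mock arrays; their part in it was not tested.

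**Figure D2:**
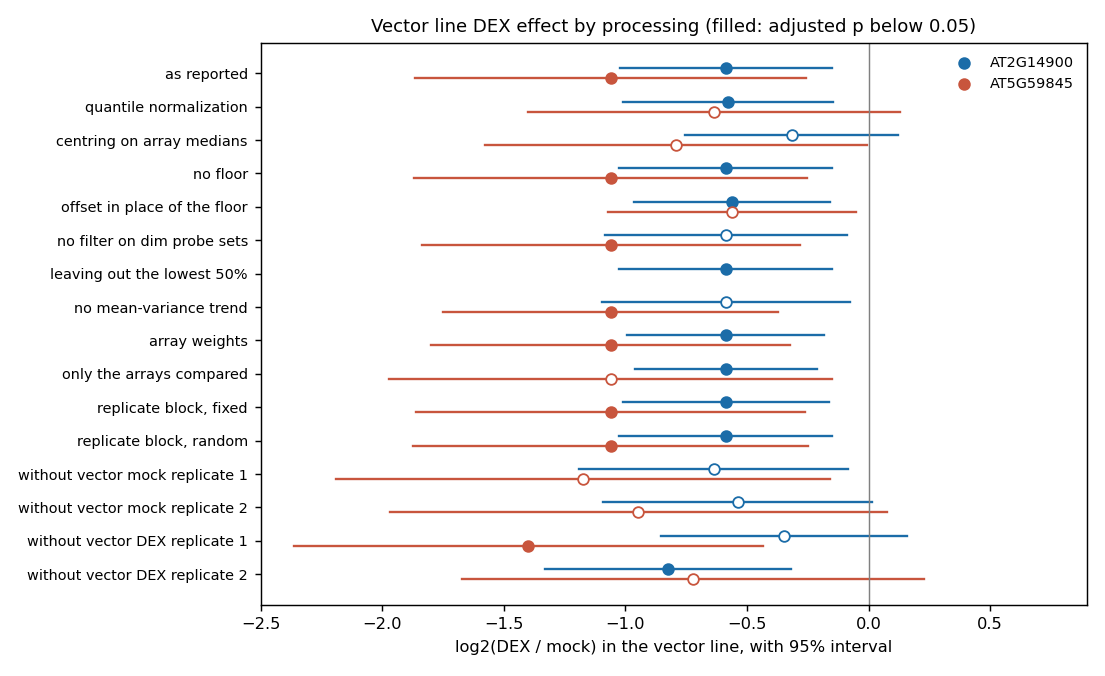
Vector line DEX effect of both genes (log2 of DEX over mock, points, with 95% intervals as lines) as reported and under each alternative fit that gave a value; filled points have an adjusted p below 0.05. All points lie below 0, between -0.32 and -1.40, while several intervals reach 0.

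Whether the DEX effects at 4 h differed between the lines was tested as a difference, which was not called for either gene. For AT2G14900 the DEX effect was 0.56 ± 0.27 higher in the rga line (adjusted p = 0.130; interval -0.0062 to 1.12). For AT5G59845 it was 0.63 ± 0.49 higher (adjusted p = 0.374; interval -0.41 to 1.67). Without vector DEX replicate 1 the value of AT2G14900 was 0.32, and that of AT5G59845 was 0.29 without vector DEX replicate 2 and 0.22 after quantile normalization. Among all tested probe sets, 30.5% were called in this difference and 20.0% were called higher, and its median over them was 0.14. A fall in the vector line that is called and a change in the rga line that is not are therefore not shown to differ. After median centring the median over all probe sets turned to -0.12, and higher calls went from 65.5% to 42.4% of the calls, and AT2G14900 and AT5G59845 stood at 0.30 and 0.38.

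The size of the DEX effect did not differ detectably between 4 h and 2 h in the rga line. The difference was -0.50 ± 0.24 for AT2G14900 (adjusted p = 0.902; interval -1.005 to 0.0022) and -0.38 ± 0.44 for AT5G59845 (adjusted p = 0.985; interval -1.31 to 0.55), in a comparison that called 0.0469% of probe sets. With DEX present, all 3 AT2G14900 arrays at 4 h lay below all 3 at 2 h, a change of -0.46 ± 0.17 (adjusted p = 0.161). Arrays were separated in this direction for 10.5% of the tested probe sets, and 4.15% were called. AT5G59845 changed by -0.22 ± 0.31 there (adjusted p = 0.816). Under GA4 alone, AT2G14900 changed by 0.040 ± 0.17 (adjusted p = 0.980) and AT5G59845 by 0.16 ± 0.31 (adjusted p = 0.944) from 2 h to 4 h, where 1.54% of probe sets were called.

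Without DEX, AT2G14900 differed between the lines. At 4 h its mock level in the rga line was 0.559 of that in the vector line (95% interval 0.424 to 0.736), a log2 difference of -0.84 ± 0.19 (adjusted p = 0.00663) with no overlap between the 3 rga and the 2 vector arrays. Of all tested probe sets, 17.6% were called in this comparison and 6.03% were called lower, arrays were separated in this direction for 18.3%, and 3.19% had a lower difference than AT2G14900. The call was kept under quantile normalization and median centring (-0.80 and -0.995), under which higher calls went from 65.7% of the calls to 53.7% and 35.4%, and was lost without vector mock replicate 2 (-0.79, adjusted p = 0.0674). AT5G59845 was not called (0.49 ± 0.35, adjusted p = 0.344; interval -0.24 to 1.23), and its arrays overlapped; it stood at 0.097 after quantile normalization and at 0.22 without rga mock replicate 1. The actin 3′ to 5′ ratio was 14.9 to 16.6 in vector mock and 9.23 to 10.5 in rga mock at 4 h, and the array medians were 167 to 168 and 183 to 189. Of the 3 root markers, the expansin genes EXPA7 (1.58, adjusted p = 0.0341) and EXPA18 (0.99, adjusted p = 0.0406) were higher in the rga line here, while PYK10 (-0.11, adjusted p = 0.486) was not called. The part of these control ratios, medians and markers in the difference was not tested.

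**Figure D3:**
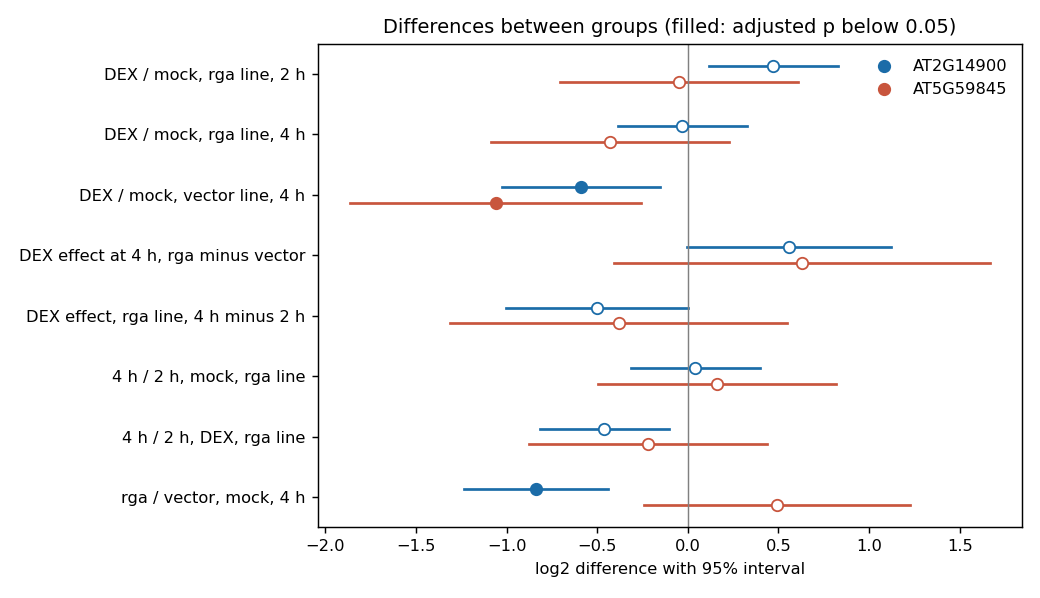
Log2 differences of AT2G14900 and AT5G59845 in the 8 comparisons (points), with 95% intervals (lines) from the limma fit; filled points have an adjusted p below 0.05. The filled points are the vector line DEX effects of both genes (-0.59 and -1.06) and the difference between the lines in mock for AT2G14900 (-0.84).

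Of 15 GASA loci listed, 6 had a probe set paired with 1 gene and 5 were tested; the other 9 were not analysed here. Over all tested probe sets, 4.14% were called at 2 h and 5.16% at 4 h in the rga line. An unadjusted limma p below 0.05 was held by 2437 and 2760. None of the 5 tested GASA genes was called at either time. Their median log2 changes were 0.36 and -0.37, where the medians over all tested probe sets were -0.014 and -0.024. In the vector line 3 of 5 were lower, none was higher, and the median was -0.59 (-0.15 over all probe sets, of which 29.6% were called lower). The members AT2G14900 and AT5G59845 are among those 3. Without them, 1 of 3 genes was lower and the median was -0.46. After centring on array medians 1 of the 5 was called, and the family median was -0.32. That gene, and the third called as deposited, was AT1G22690, whose signal was 1694 ± 19.3 on the vector mock arrays and 988 ± 117 on the DEX arrays (n = 2 each). It fell by 0.78 (SE 0.15, adjusted p = 0.000247), and this call held after quantile normalization (-0.80), after median centring (-0.51, adjusted p = 0.0112) and without any single array. In the rga line AT1G22690 changed by -0.090 ± 0.12 at 2 h and by -0.37 ± 0.12 at 4 h (adjusted p = 0.0913), and its DEX effects did not differ between the lines by the test (0.41 ± 0.19, adjusted p = 0.119).

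The remaining family members were dim, as was the member AT5G59845, with group means of 35.9 to 107. AT2G39540 changed by 0.36 ± 0.30 at 2 h, -0.53 ± 0.30 at 4 h and -0.35 ± 0.36 in the vector line, with no call. AT2G18420 gave 12.7 to 76.7 on the 2 h mock arrays and 57.0 to 115 with DEX, so its change of 1.37 ± 0.74 (adjusted p = 0.439) was the largest of the 5 and also the least precise. AT2G30810, the sixth gene with a probe set, was too dim to be tested, with group means of 10.3 to 26.3.

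**Figure D4:**
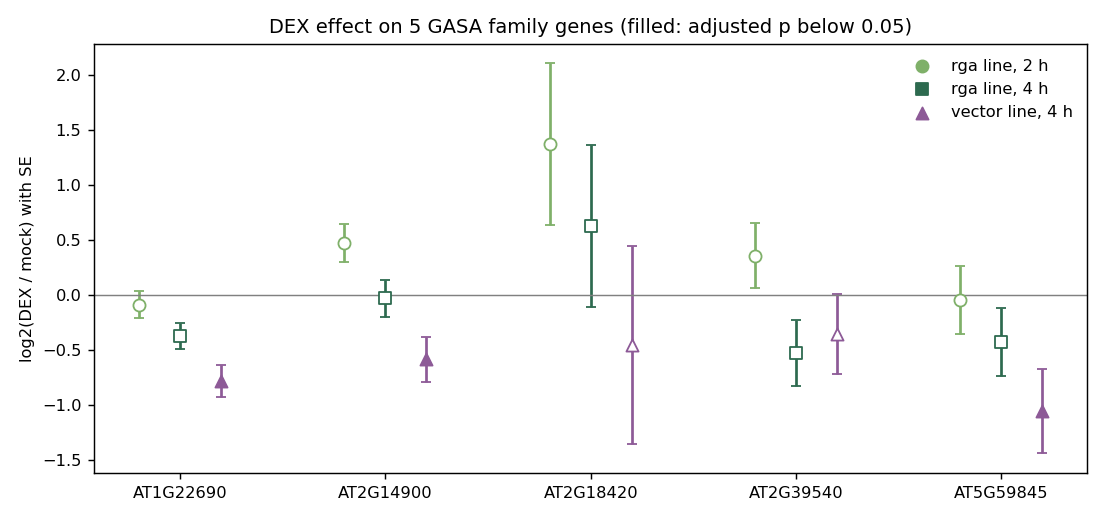
DEX effect (log2 of DEX over mock, with SE) on the 5 tested GASA genes in the rga line at 2 h (circles) and 4 h (squares) and in the vector line at 4 h (triangles); filled symbols have an adjusted p below 0.05. All 5 triangles lie below 0, from -0.35 to -1.06, and 3 of them are filled.

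Of the genes that carry the gibberellin signal, 7 of 11 listed were tested. The others, the DELLA genes GAI, RGL1, RGL2 and RGL3, had no paired probe set. The DELLA gene RGA was not on the list, so no DELLA transcript level is given here. The 18 listed genes of gibberellin metabolism had no paired probe set either. Of the 7, 2 rose and none fell at 2 h: the receptor gene GID1B, by 1.503 (limma adjusted p = 1.25e-05), and SLY1, by 0.50 (adjusted p = 0.0247; 3.02% of all probe sets were called higher), a call lost on leaving out any of 4 of the 6 arrays and with the fixed replicate block (adjusted p = 0.0505). At 4 h the receptor genes GID1B (1.91) and GID1A (0.69) rose and none fell, where 3.61% of all probe sets were called higher. In the vector line GID1B (1.18) and SPY (0.35), which codes for a glycosyltransferase that modifies DELLA proteins, rose, while GID1A (-1.08), GID1C (-0.59), another receptor gene, and SNE (-0.79), an F-box gene related to SLY1, were lower; of all probe sets, 17.7% were called higher and 29.6% lower there. The calls of GID1C and SNE were lost under both other scalings, and those of SNE and SPY without any 1 of the 4 arrays; the SNE call was also lost with the fixed replicate block (adjusted p = 0.0660). The median change of the 7 was 0.28, 0.17 and -0.25 in these comparisons. Between the lines in mock, GID1A (0.69) and SLY1 (0.49) were higher and SEC (-0.45), coding for an enzyme that also modifies DELLA proteins, was lower in the rga line, with each call lost without at least 1 of the 5 arrays; the shares over all probe sets were 11.5% higher and 6.03% lower. The SLY1 mock call was also lost after median centring (0.34, limma adjusted p = 0.105) and with only the arrays compared (adjusted p = 0.0652). The SEC call was also lost after quantile normalization (-0.42, adjusted p = 0.0541). With DEX, GID1A was higher at 4 h than at 2 h (0.53), a call lost on leaving out any of 4 of the 6 arrays.

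The genes whose log2 signals followed each member most closely over the arrays were ranked by Pearson correlation among 9526 tested probe sets with 1 named gene. All values come from the same arrays and share their scaling, so they are descriptions. Ranked by Spearman correlation, 1 of the 5 genes named for AT2G14900 and 0 of the 5 named for AT5G59845 stayed among the closest 5. For AT5G59845 the 5 closest over 16 arrays were AT5G38720, AT4G39630, AT1G33930, AT3G28330 and AT5G01075 (r = 0.926 to 0.952). Without the vector DEX arrays the highest 5 values were 0.802 to 0.833 over 14 arrays, and 2 genes, AT5G38720 and AT3G28330, were in both lists. AT5G38720, the closest in both, gave 566 ± 49.2 in vector mock and 404 ± 51.5 in vector DEX and 554 to 613 as group means in the rga line, so it shares the low vector DEX level. For AT2G14900 the closest were AT1G14930, AT1G13880, AT2G47320, AT2G22425 and AT2G17740 (r = 0.726 to 0.813), and none of them was among the 5 closest over 14 arrays. The closest, AT1G14930, gave 170 ± 2.32 in vector mock, 84.7 ± 53.7 in vector DEX and 43.6 to 67.9 as group means in the rga line. AT2G17740, at rank 5, gave 1251 ± 373, 391 ± 18.4 and 203 to 390 there, and so shares the high vector mock level. The step was smaller for AT2G47320, at rank 3, with 3355 ± 211, 3213 ± 20.8 and 2885 to 3264. The 2 members did not follow each other, with r = -0.23 over 16 arrays and -0.25 over 14.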

How the data were processed

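Transcript levels were measured in shoots on 16 single-colour Affymetrix arrays, 1 per sample, and grouped by the labels into 6 groups of line, time and DEX. The authors deposited linear-scale intensities from MAS5, according to the submitters' processing notes; for its version, the detection calls and scan batches, no source used here gives a value. The mean after trimming 2% at each end was 500.05 on every array, so each had been scaled to 1 target, which was kept. From the 22810 probe sets 64 controls were left out. Signals under the 10th percentile of all values were raised to it (7.95) before log2, and dropping the dimmest 25% by mean log2 left 17059. The members' signals, 27.6 to 1266, all lay above this floor.

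Group means for the 6 groups were fitted at once with limma 3.58.1 in R 4.3.3, leaving 10 residual degrees of freedom, and 8 comparisons were drawn from them, with eBayes, a mean-variance trend and Benjamini-Hochberg adjustment. The fit was tested on simulated data. The number of arrays limits the precision. The probe table pairs 13513 probe sets with 1 gene, 503 with several and lists none for 8730; loci came from RefSeq (TAIR10.1) through gene identifiers, and no coordinates were taken, since the files name no build. A listed gene used its brightest probe set. All GASA genes were named, signalling genes were named where called, and pattern neighbours were the 5 highest Pearson correlations. The members and lists were chosen with earlier results of these data known. Same-numbered arrays of the rga line deviated from their group means with correlations of -0.089 to 0.26 over 18 pairs, of which 2 exceeded 0.1, so the numbers were not taken as pairs. Alternatives were 2 other scalings, other floors and filters, no trend, array weights, fewer arrays, a replicate block, stricter calls and each array left out in turn.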

Additional observations from a re-analysis of the deposited data

Results flagged for a closer look

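Among the 7 gibberellin signalling genes and the 5 GASA genes tested, the DEX effects at 4 h differed between the lines by the test of the difference itself for 2 receptor genes, where 30.5% of all probe sets were called and 20.0% were called higher. Calls in this difference were thus common among all probe sets. With DEX for 4 h, GID1A changed by -1.08 in vector plants and by 0.69 in rga plants. The vector DEX arrays correlated with the other 14 at 0.789 to 0.884. Their 25S ribosomal RNA control was 12528 and 13088, against 391 to 2046 elsewhere. The part of these arrays in the differences was not tested. For GID1A the effect was higher in the rga line by 1.76 ± 0.20 (SE, limma adjusted p = 2.45e-06). For GID1B it was higher by 0.72 ± 0.26 (adjusted p = 0.0447), a call that 8 of the 10 single-array omissions removed, as did 6 of 13 other settings, among them the fixed replicate block (adjusted p = 0.0615).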

How the results depend on the processing

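Over 16 results (8 comparisons of each of the 2 genes), 322 values were recomputed under the alternatives. Of these, 297 kept their direction and their side of the threshold, 16 lost a call, none gained one and 9 changed sign. All 9 were in uncalled results with 1 array left out. Most of the 16 results had no call to lose, so the 297 do not measure how firm the calls are. Apart from single-array omissions, the vector line DEX call was lost in 4 of 13 settings for AT2G14900 and 5 of 12 for AT5G59845. The AT2G14900 mock call between the lines was lost in 0 of 14. The DEX effect on AT2G14900 in the vector line was not called with arrays centred on medians (-0.32), with no dim filter or no trend (-0.59 in both) or at an adjusted p below 0.01 (-0.59), and ran from -0.83 to -0.35 with single arrays left out. That on AT5G59845 was not called after quantile normalization (-0.64), median centring (-0.79), with an offset in place of the floor (-0.56), with only the arrays compared or at an adjusted p below 0.01 (-1.06 in both), and ran from -1.40 to -0.72; it was not among the probe sets tested when the lowest 50% were left out. A vector group left with 1 array is assumed to vary like the others. With single arrays left out, the AT2G14900 mock difference between the lines ran from -0.93 to -0.70, its 4 h DEX effect from -0.17 to 0.057 and its mock change from 2 h to 4 h from -0.12 to 0.18; AT5G59845's 2 h DEX effect ran from -0.20 to 0.057 and its mock change from -0.11 to 0.39. Likewise AT1G22690 at 2 h ran from -0.21 to 0.018, AT2G18420 from -0.15 to 1.36 at 4 h and -1.04 to 0.12 in the vector line, and the difference of AT2G39540's effects between the lines from -0.40 to 0.040. The replicate block changed none of these 16 results (among the signalling genes, its fixed form ended the calls of SLY1 at 2 h, SNE in the vector line and the GID1B difference): the AT2G14900 DEX effect in the vector line had an adjusted p of 0.0240 and that of AT5G59845 0.0298 with the fixed block, and 5 of the 12 rga arrays correlated best with their own number. The closest neighbour correlation of AT2G14900 was 0.872 over 14 arrays and 0.762 by Spearman, and that of AT5G59845 0.894 by Spearman. The share of probe sets called ranged over the alternatives from 2.27 to 5.73% for DEX at 2 h (4.14% as reported), 2.72 to 7.32% at 4 h (5.16%), 1.75 to 6.5% for time with DEX (4.15%), 0.545 to 2.5% for time in mock (1.54%), 6.02 to 21.7% for the lines in mock (17.6%) and 0 to 0.0762% for the difference between times (0.0469%). The causes were not tested.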

Other observations

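Under GA4 alone at 4 h, AT2G39540, another GASA gene, was higher in the rga line than in the vector line. Its signals were 121 ± 23.0 (n = 3) and 43.3 ± 9.18 (n = 2), a log2 difference of 1.48 ± 0.33 (limma adjusted p = 0.00649). The arrays did not overlap, a separation seen in this direction for 32.6% of the tested probe sets. The call was lost after quantile normalization (0.88, adjusted p = 0.106) and without vector mock replicate 1 (1.26, adjusted p = 0.0713). In the same comparison AT2G14900 was lower in the rga line, so 1 of the 5 GASA genes was called higher and 1 lower, where 11.5% of all probe sets were called higher and 6.03% lower.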
